A study of Sinonovacula constricta with 9 samples.

Results

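The 100 most abundant transcripts of whole juvenile razor clams are described here, across 3 salinities. They were chosen by their read counts: the deposited count of each assembled transcript sequence, called a unigene, was summed over all 9 libraries, and the 100 largest sums among 246672 unigenes were taken. The members are named by their rank in that order, from rank 1 for the largest sum. Sinonovacula constricta is a bivalve mollusc that burrows in estuarine mudflats, where salinity changes. RNA sequencing was done on the whole organism, juveniles on day 15 after fertilization that had been exposed for 6 h. The groups, each of 3 libraries, were low salinity (5 psu), the optimal salinity that served as the control (15 psu) and high salinity (25 psu). The practical salinity unit (psu) is close to grams of salt per kilogram of water. Whether a group's replicates were separate cultures is not stated in the labels, so every p-value rests on the spread among these libraries alone, which may be technical.

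Bivalves are osmoconformers: their body fluids follow the salinity of the water, and their cells hold their volume mainly by adjusting free amino acids and other small solutes. A sequencing library is a fixed pool of reads, so a few very abundant transcripts take reads from all others, and a transcript's share can move when another transcript moves. In RNA from whole animals, fewer cells of a type and less RNA per cell cannot be told apart. The files do not pair unigene identifiers with gene names, so functions, sequences and genome positions are not given here.

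Total estimated counts ran from 15897903 to 18427234 per library, and 71915 unigenes had enough counts to be tested. All 100 members passed that filter. All of them also carry the number of a single assembly cluster, which holds 178061 unigenes (72.2% of all), so related sequences may share reads and the count of a single unigene is uncertain to that extent. A count that is not whole holds divided reads. Of the members, 36 had whole counts in all 9 libraries, beside 26.1% of the tested unigenes. The normalisation factors of the TMM method, which scales libraries by the bulk of their unigenes, were 0.926, 0.998 and 1.068 for replicates 1, 2 and 3 at 5 psu. They lay between 0.985 and 1.041 at 15 psu and between 0.966 and 1.008 at 25 psu.

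The members held 30.5% of all counts. The sum of rank 1, 8779296 counts, was 60.4-fold the sum of rank 100, 145368 counts. The 10 largest members took 15.7% of all counts, which is 51.3% of what the 100 members took together. Ranks 1 and 2 alone took 9.02%. Around the border of the list the sums fell off slowly, with 149510, 147002, 146363, 146221 and 145368 counts for ranks 96 to 100, just inside it, and 145138, 144549, 144168, 142887 and 142143 counts for the 5 unigenes just outside it.

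The list was close to the same in every library. A library's own 100 most abundant unigenes included between 88 of the members, in replicate 3 at 5 psu, and 96 of them. There were 74 members in the first 100 of all 9 libraries, and the lowest place any member took in a library was 185. A long unigene gathers more reads than a short one at the same level, and FPKM (fragments per unit of unigene length and of library size) corrects for this. Of the members, 49 were also among the 100 unigenes with the largest mean FPKM. The members' mean FPKM had a median of 1406 and ran from 110, for rank 86, to 10854, for rank 40, which had the largest mean FPKM of all unigenes. The effective length implied by count and FPKM ran from 147 nt, for rank 40, to 15408 nt, for rank 11, with a median of 1484 nt.

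Together the members took 35.3%, 31.7% and 27.5% of the counts of the 3 libraries at 5 psu, 32.2%, 29.7% and 30.1% at 15 psu, and 29.5%, 30.0% and 28.9% at 25 psu. The means were 31.5% ± 3.89 at 5 psu, 30.7% ± 1.36 at 15 psu and 29.5% ± 0.545 at 25 psu (SD, n = 3 each). The highest and the lowest of the 9 shares both came from 5 psu, so the groups overlapped. The counting error of a share was 0.021 to 0.023 percentage points (Wilson 95% interval, to either side), far below the spread between libraries. The mean difference of 5 from 15 psu was 0.84 percentage points, and without replicate 1 at 5 psu it was -1.05.

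**Figure D1:**
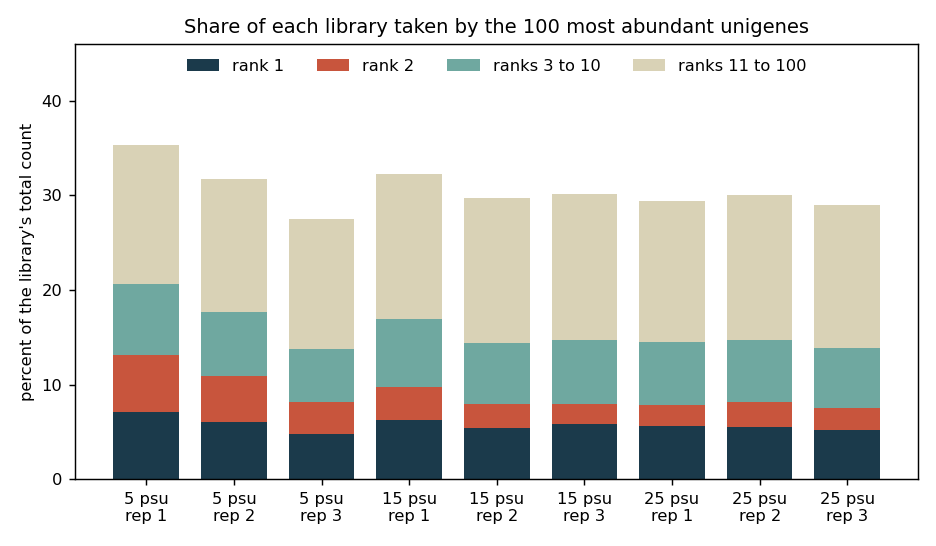
Share of each library's total count, in percent, taken by the 100 most abundant unigenes, stacked by rank class for the 3 libraries at 5, 15 and 25 psu. The stacks run from 27.5% to 35.3%, both at 5 psu, while ranks 11 to 100 take 13.7% to 15.4% throughout.

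The spread in the summed share lay in the largest members. Ranks 11 to 100 took 14.6%, 14.1% and 13.7% of the counts at 5 psu, 15.3%, 15.3% and 15.4% at 15 psu, and 14.9%, 15.3% and 15.1% at 25 psu. The 5 psu libraries were the 3 lowest. Ranks 3 to 10 took 6.62% ± 0.995 at 5 psu, 6.84% ± 0.359 at 15 psu and 6.51% ± 0.193 at 25 psu (SD, n = 3 each), with overlapping libraries. Without ranks 1 and 2, a choice made after the values were seen, the remaining 98 members took 20.8% ± 1.42 at 5 psu, 22.1% ± 0.365 at 15 psu and 21.6% ± 0.255 at 25 psu (SD, n = 3 each). The order of the 5 psu mean and the other means was thus turned round once ranks 1 and 2 were left out.

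Rank 1 (Cluster-8005.112228) took 7.07%, 6.09% and 4.85% of the counts at 5 psu, 6.31%, 5.46% and 5.88% at 15 psu, and 5.66%, 5.5% and 5.27% at 25 psu. The 3 groups overlapped, and the 5 psu libraries alone spanned every other value. No difference was called between any pair of salinities: on the TMM scale its log2 fold change was 0.07 for 5 against 15 psu (SE 0.16, adjusted p = 0.901) and -0.06 for 25 against 15 psu (SE 0.16, adjusted p = 0.917). Adjusted p-values here and below are from edgeR's quasi-likelihood test with Benjamini-Hochberg adjustment over all 71915 unigenes tested, and a change is called at an adjusted p under 0.05. Each SE draws on a single estimate of a unigene's spread within groups over all 9 libraries. It is not the spread of the compared groups alone.

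Rank 2 (Cluster-8005.112184) took 6.06%, 4.83% and 3.35% at 5 psu, 3.41%, 2.47% and 2.04% at 15 psu, and 2.2%, 2.66% and 2.32% at 25 psu. Its 5 psu libraries lay above those at 25 psu, but the lowest of them was below the highest at 15 psu. In CPM, the count relative to the library size with TMM scaling, the means were 49235 ± 17300 at 5 psu, 26506 ± 7820 at 15 psu and 24718 ± 2960 at 25 psu (SD, n = 3 each). The log2 fold change was 0.89 for 5 against 15 psu (SE 0.29, adjusted p = 0.185) and -0.99 for 25 against 5 psu (SE 0.29, adjusted p = 0.0655), neither past the threshold. For 25 against 5 psu it passed in 6 of 21 alternative fits, among them the fit without replicate 3 at 5 psu, with adjusted p from 0.0181 to 0.295 over the 21. For 5 against 15 psu it passed in 0 of 21, with adjusted p from 0.0631 to 0.608.

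Ranks 3 to 10 each took between 0.486% and 1.59% of all counts. Rank 3 took 1.77%, 1.54% and 1.23% at 5 psu, 1.76%, 1.56% and 1.63% at 15 psu, and 1.66%, 1.63% and 1.56% at 25 psu. Rank 4 took 1.95%, 1.69% and 1.35% at 5 psu, 1.73%, 1.45% and 1.55% at 15 psu, and 1.55%, 1.52% and 1.46% at 25 psu. In both, the span within 5 psu covered that of the other 6 libraries. Rank 5 took 0.869%, 0.750% and 0.591% at 5 psu, 0.704%, 0.605% and 0.666% at 15 psu, and 0.653%, 0.639% and 0.606% at 25 psu, the same picture at a lower level.

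Rank 6 took 0.736%, 0.623% and 0.542% at 5 psu, 0.672%, 0.703% and 0.715% at 15 psu, and 0.662%, 0.661% and 0.626% at 25 psu. Its highest and lowest shares both came from 5 psu. Rank 7 took 0.765%, 0.709% and 0.539% at 5 psu, 0.804%, 0.615% and 0.655% at 15 psu, and 0.603%, 0.589% and 0.572% at 25 psu, so its highest share was in replicate 1 at 15 psu. In CPM, replicate 1 at 5 psu was higher, with 8400 beside 8300. Rank 8 took 0.477%, 0.466% and 0.448% at 5 psu, 0.515%, 0.570% and 0.556% at 15 psu, and 0.540%, 0.540% and 0.529% at 25 psu. Its 5 psu libraries were the 3 lowest of the 9, but no pair of salinities differed past the threshold.

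Rank 9 took 0.495%, 0.467% and 0.425% at 5 psu, 0.525%, 0.507% and 0.504% at 15 psu, and 0.529%, 0.509% and 0.491% at 25 psu, with overlap between 5 and 25 psu. Rank 10 took 0.5%, 0.475% and 0.450% at 5 psu, 0.513%, 0.508% and 0.512% at 15 psu, and 0.481%, 0.475% and 0.457% at 25 psu, with its highest shares in the 3 libraries at 15 psu. In CPM, its highest library was replicate 1 at 5 psu, with 5489 beside 5291, 5020 and 5007 at 15 psu. None of ranks 1 to 14 was called in any comparison of salinities, and the most abundant member with a call was rank 15.

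**Figure D2:**
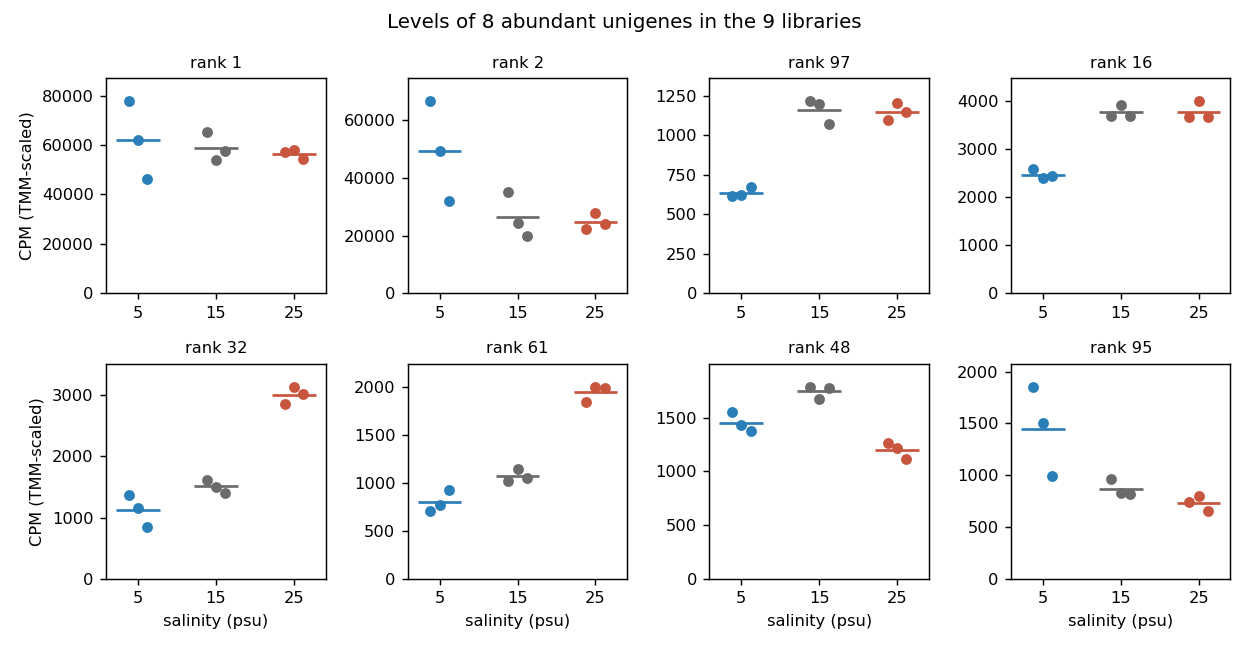
CPM (TMM-scaled) of ranks 1, 2, 97, 16, 32, 61, 48 and 95 in each of the 9 libraries, by salinity in psu, with 1 panel per unigene (points: libraries in order of replicate number, lines: group means). Ranks 1 and 2 spread widely within 5 psu, ranks 97 and 16 are low at 5 psu alone, ranks 32 and 61 are highest at 25 psu, rank 48 is highest at 15 psu and rank 95 is highest at 5 psu.

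The comparison of 5 with 15 psu asked which abundant transcripts responded to dilute water. None of the members rose at 5 psu and 6 fell, against 1.26% of all tested unigenes that rose and 1.60% that fell. Among the next 900 unigenes in the order of summed counts, 53 (5.89%) rose and 84 (9.33%) fell. At an unadjusted p under 0.05, 21 members differed, beside 14.7% of all tested unigenes and 36.7% of the next 900, and 4 members were higher, beside 6.62% of all tested. DESeq2's Wald test called 2 members higher while limma-voom called 0 higher. Log2 fold changes of the members ran from -0.87 to 0.89, with a median of -0.03 beside -0.002 over all tested unigenes. The median absolute log2 fold change was 0.07 for the members, beside 0.16 for the next 900 and 0.3 for all tested unigenes.

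Rank 97 had the largest called fall. It had 614, 620 and 673 CPM at 5 psu, 1213, 1196 and 1073 CPM at 15 psu, and 1095, 1206 and 1147 CPM at 25 psu. Its fitted level at 5 psu was 1.83-fold lower than at 15 psu, and the 5 psu libraries overlapped neither other group (log2 fold change -0.87 for 5 against 15 psu, SE 0.08, adjusted p = 0.000271). Between 25 and 15 psu its log2 fold change was -0.01 (SE 0.07, adjusted p = 0.960).

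Rank 24 had 1537, 1727 and 2069 CPM at 5 psu, 2788, 2817 and 2685 CPM at 15 psu, and 3155, 3102 and 3228 CPM at 25 psu. Every library stood above all libraries of the next lower salinity. The fall at 5 psu against 15 psu was -0.64 on the log2 scale (SE 0.10, adjusted p = 0.00693).

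Rank 16 had 2574, 2386 and 2428 CPM at 5 psu, 3681, 3917 and 3684 CPM at 15 psu, and 3658, 3981 and 3659 CPM at 25 psu. Like rank 97 it was low at 5 psu alone, with overlapping libraries at 15 and 25 psu. Its log2 fold change was -0.61 for 5 against 15 psu (SE 0.07, adjusted p = 0.000946) and 0.00 for 25 against 15 psu (SE 0.06, adjusted p = 0.995).

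Rank 15 had 2491, 2599 and 2956 CPM at 5 psu, 3998, 4179 and 3958 CPM at 15 psu, and 4691, 4648 and 4600 CPM at 25 psu. The 3 groups stood apart in the order of salinity. It fell at 5 psu against 15 psu by 0.59 on the log2 scale (SE 0.07, adjusted p = 0.00201), and its log2 fold change for 25 against 15 psu was 0.20 (SE 0.07, adjusted p = 0.219). The other members that fell at 5 psu were rank 18, with a log2 fold change of -0.44 (adjusted p = 0.00640), and rank 42, with -0.28 (adjusted p = 0.0481). The call of rank 42 was lost in 13 of 21 alternative fits.

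The same question was asked of concentrated water by setting 25 psu against the same 3 control libraries. At 25 psu 3 members rose and 1 fell, against 1.67% of all tested unigenes that rose and 0.679% that fell. Of the next 900 unigenes, 99 (11%) rose and 23 (2.56%) fell. At an unadjusted p under 0.05, 14 members differed, beside 15.1% of all tested unigenes and 30.6% of the next 900, so the members' share was near that of all unigenes. Log2 fold changes ran from -0.54 to 0.99 with a median of 0.005, beside -0.013 over all tested unigenes. The median absolute log2 fold change was 0.07 for the members, beside 0.13 for the next 900 and 0.31 for all tested. The number called was 2 without replicate 3 at 15 psu, 8 without replicate 3 at 5 psu, and 0 when each library's effective-length offset was a covariate. The offsets at 25 psu, -6.3, -4.4 and -6.2 nt, lay below those of every other library. That fit therefore cannot cleanly tell offset from salinity. In it the log2 fold changes of ranks 18, 32, 48 and 61 were 0.35, 0.97, -0.55 and 0.93, beside 0.31, 0.99, -0.54 and 0.86 in the main fit.

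Rank 32 (Cluster-8005.112907) had the largest rise. It had 1362, 1149 and 841 CPM at 5 psu, 1614, 1508 and 1405 CPM at 15 psu, and 2864, 3133 and 3025 CPM at 25 psu. The 25 psu libraries stood 1.99-fold above those at 15 psu, and the groups did not overlap. The log2 fold change was 0.99 for 25 against 15 psu (SE 0.15, adjusted p = 0.00944) and -0.43 for 5 against 15 psu (SE 0.15, adjusted p = 0.195). Without replicate 3 at 15 psu the adjusted p of the rise was 0.0503.

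Rank 61 (Cluster-8005.114870) had 710, 766 and 925 CPM at 5 psu, 1015, 1145 and 1049 CPM at 15 psu, and 1839, 1994 and 1982 CPM at 25 psu. Its groups also stood apart in the order of salinity. The log2 fold change was 0.86 for 25 against 15 psu (SE 0.10, adjusted p = 0.00238) and -0.42 for 5 against 15 psu (SE 0.10, adjusted p = 0.0589).

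Rank 18 had 2117, 2322 and 2407 CPM at 5 psu, 3110, 3167 and 3002 CPM at 15 psu, and 3968, 3820 and 3755 CPM at 25 psu. It was the member called in both comparisons with 15 psu, lower at 5 psu and higher at 25 psu. Its log2 fold change for 25 against 15 psu was 0.31 (SE 0.07, adjusted p = 0.0408), a call lost in 13 of 21 alternative fits.

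Rank 48 (Cluster-8005.110046) was the member that fell at 25 psu. It had 1555, 1434 and 1372 CPM at 5 psu, 1784, 1669 and 1776 CPM at 15 psu, and 1263, 1217 and 1119 CPM at 25 psu. The 15 psu libraries were the 3 highest. The log2 fold change was -0.54 for 25 against 15 psu (SE 0.07, adjusted p = 0.00547) and -0.26 for 5 against 15 psu (SE 0.07, adjusted p = 0.108).

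**Figure D3:**
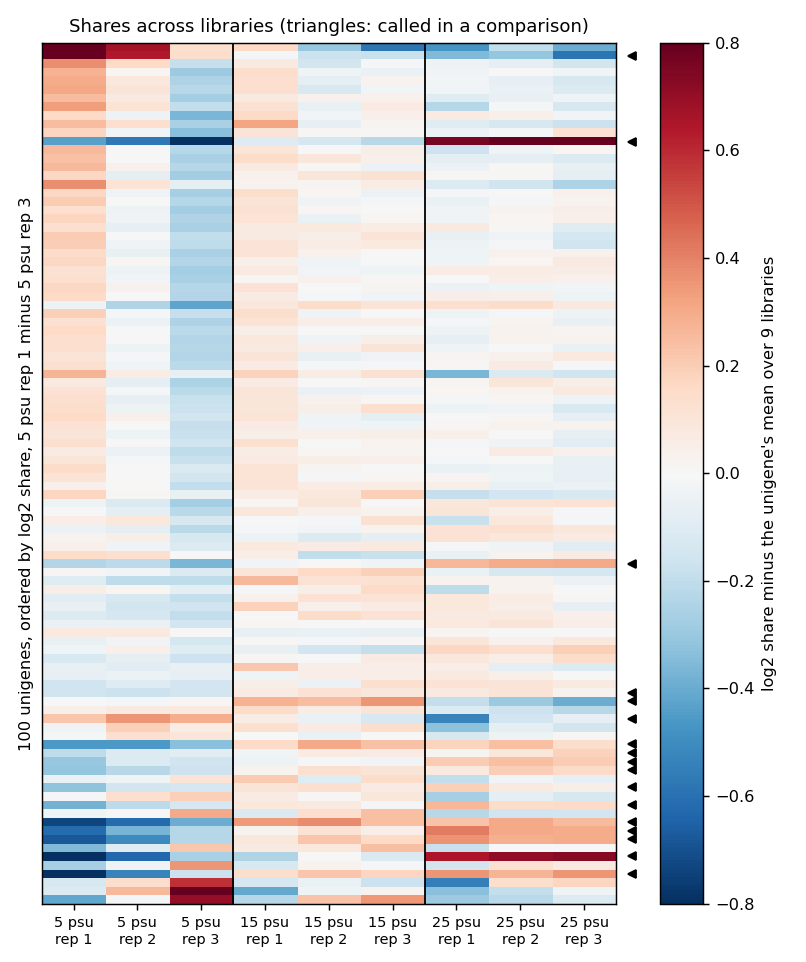
Level of each of the 100 members in each of the 9 libraries, as log2 of the share of the library less the member's mean over the 9 libraries, with libraries ordered by salinity in psu. Members run down the page by the difference between replicates 1 and 3 at 5 psu, and triangles mark the 17 called in a comparison. Most members differ little between salinities, a minority shifts stepwise, and the 3 columns of 5 psu differ among themselves over many members.

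Across the whole range, 25 against 5 psu, 14 members rose and 3 fell, against 6.48% of all tested unigenes that rose and 4.63% that fell. Of the next 900 unigenes, 221 (24.6%) rose and 88 (9.78%) fell. All 6 members called between 5 and 15 psu and all 4 called between 25 and 15 psu were among these 17. Another 8 members were called only here. Over all tested unigenes, too, the most were called here, 7990 beside 2053 for 5 against 15 psu and 1687 for 25 against 15 psu. That left 83 members with no call in any comparison. Over all members the log2 fold change ran from -0.99 to 1.43, with a median of 0.03 beside -0.023 over all tested unigenes. The split of the called members into rises and falls moved with the fit. It was 21 and 2 without replicate 1 at 5 psu, and 12 and 7 without replicate 3 at 5 psu. DESeq2's Wald test gave 17 and 8, and the fit with the effective-length offset as a covariate gave 11 and 0.

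The called members were minor ones: the 17 held 3.04% of all counts. The 14 that rose took 2.05% ± 0.154 of the counts at 5 psu, 2.81% ± 0.0826 at 15 psu and 3.23% ± 0.0262 at 25 psu (SD, n = 3 each). The 3 that fell took 0.397% ± 0.0300 at 5 psu, 0.353% ± 0.0106 at 15 psu and 0.267% ± 0.00811 at 25 psu (SD, n = 3 each). These summed shares describe members picked by the same libraries.

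The largest rises at 25 psu against 5 psu were those of ranks 32, 61, 97 and 24. At 25 psu rank 32 averaged 3007 ± 135 CPM, against 1118 ± 262 CPM at 5 psu (SD, n = 3 each), a log2 fold change of 1.43 (SE 0.15, adjusted p = 0.000369). At 25 psu rank 61 averaged 1938 ± 86.2 CPM, against 800 ± 112 CPM at 5 psu (SD, n = 3 each), a log2 fold change of 1.28 (SE 0.10, adjusted p = 5.15e-05). These were the members past a log2 fold change of 1. Rank 97 rose by 0.85 (SE 0.08, adjusted p = 9.65e-05) and rank 24 by 0.83 (SE 0.10, adjusted p = 0.000608).

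Rank 95 (Cluster-8005.112197) had the largest called fall. It had 1851, 1500 and 993 CPM at 5 psu, 961, 826 and 815 CPM at 15 psu, and 743, 798 and 651 CPM at 25 psu. Its groups stood apart in falling order, while its 5 psu libraries spread 1.86-fold among themselves. The log2 fold change was -0.99 for 25 against 5 psu (SE 0.20, adjusted p = 0.0149), 0.74 for 5 against 15 psu (SE 0.20, adjusted p = 0.104) and -0.25 for 25 against 15 psu (SE 0.20, adjusted p = 0.639). The call was lost in 4 of 21 alternative fits, among them those without replicate 1 or replicate 3 at 25 psu.

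Rank 100 had 1209, 1219 and 1097 CPM at 5 psu, 1014, 898 and 843 CPM at 15 psu, and 657, 890 and 930 CPM at 25 psu. Its 25 psu libraries lay below its 5 psu libraries but overlapped those at 15 psu. The log2 fold change was -0.51 for 25 against 5 psu (SE 0.13, adjusted p = 0.0311), a call lost in 6 of 21 alternative fits, those without replicate 1 or 2 at 5 psu or replicate 2 at 25 psu among them. Rank 48, highest at 15 psu, also fell between 25 and 5 psu, by 0.28 on the log2 scale (SE 0.07, adjusted p = 0.0400), and lost this call in 10 of 21 alternative fits.

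**Figure D4:**
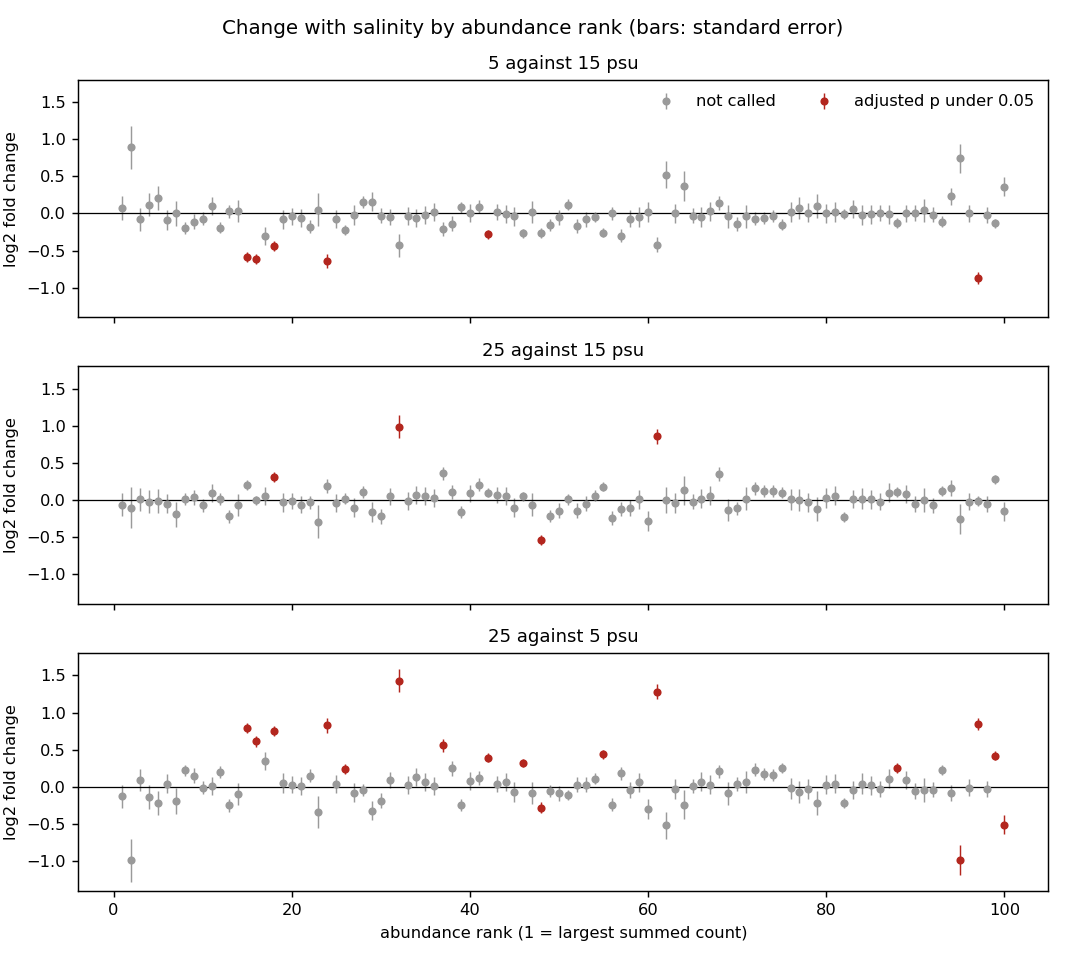
Log2 fold change of each member against its abundance rank for 5 against 15 psu, 25 against 15 psu and 25 against 5 psu, with called members (adjusted p under 0.05) in red and bars for the standard error. No member of ranks 1 to 14 is red, and the 25 against 5 psu values run from -0.99 to 1.43.

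A member was counted as following salinity when it was called for 25 against 5 psu and its 3 groups ran in the order of salinity without neighbours overlapping. Rising members numbered 8, ranks 15, 18, 24, 32, 37, 55, 61 and 99, against 2.43% of all tested unigenes. The falling member was rank 95, against 1.23% of all tested unigenes. Among the next 900, 117 (13.0%) rose stepwise and 36 (4.0%) fell stepwise.

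The 8 rising members did not rise by equal steps. Rank 24 had a log2 fold change of -0.64 for 5 against 15 psu and 0.19 for 25 against 15 psu, while rank 32 had -0.43 and 0.99. Rank 15 and rank 18 had log2 fold changes of 0.79 (SE 0.07, adjusted p = 0.000129) and 0.75 (SE 0.07, adjusted p = 9.94e-05) for 25 against 5 psu. For ranks 37, 55 and 99 the log2 fold changes of 25 against 5 psu were 0.56, 0.44 and 0.42. The 2 control comparisons share the libraries at 15 psu, so their values are not independent.

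The test for any difference among the 3 salinities called 14 members, against 8.64% of all tested unigenes and 293 (32.6%) of the next 900. In each of the comparisons the members had a smaller called share than the next 900 unigenes. Their median SE of the log2 fold change was 0.113, beside 0.0978 for the next 900 and 0.33 for all tested. Their median absolute log2 fold change of 25 against 5 psu was 0.11, beside 0.24 for the next 900 and 0.41 for all tested. The called members were also longer: the median implied effective length was 2155 nt for the 17 called and 1318 nt for the 83 others, and 37 members were shorter than the shortest called one, at 1018 nt.

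Over the 9 libraries the members most like rank 32 in log2 CPM were rank 37 (Pearson r = 0.995), rank 99 (r = 0.970) and rank 93 (r = 0.912). Those most like rank 95 were rank 2 (r = 0.945), rank 29 (r = 0.878) and rank 5 (r = 0.793). The libraries share their grouping by salinity and their scaling, so these values only describe likeness. Rank 93, not called, had 1002, 962 and 846 CPM at 5 psu, 1031, 979 and 1016 CPM at 15 psu, and 1072, 1079 and 1139 CPM at 25 psu. Rank 29, also not called, had 2906, 2258 and 1858 CPM at 5 psu, 2157, 2052 and 2090 CPM at 15 psu, and 1917, 1930 and 1787 CPM at 25 psu.

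The replicates of 5 psu differed from each other more than those of the other salinities. The ratio of the highest to the lowest CPM among the 3 libraries of a salinity had a median over members of 1.4 at 5 psu, 1.1 at 15 psu and 1.07 at 25 psu. The next 900 unigenes had 1.22, 1.1 and 1.11 at 5, 15 and 25 psu, and all tested unigenes had 1.62, 1.48 and 1.49. At 5 psu 32 members differed by at least 1.5-fold between replicates, as did 1 at 15 psu and 1 at 25 psu. Beside them, 133 of the next 900 and 41868 of all 71915 tested unigenes did so at 5 psu. The same counts were 17 and 35120 at 15 psu, and 15 and 35472 at 25 psu. The median coefficient of variation of the members was 16.6% at 5 psu, 5.26% at 15 psu and 3.73% at 25 psu. Of the 100 members, 86 had their largest ratio at 5 psu on the TMM scale. No matching count over other unigenes or on library totals is given here. On library totals alone, without the TMM factors, the medians were 1.25 at 5 psu, 1.08 at 15 psu and 1.06 at 25 psu, and 8 members at 5 psu differed by at least 1.5-fold. On that scale 135 of the next 900 and 42501 of all 71915 tested unigenes did so at 5 psu.

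**Figure D5:**
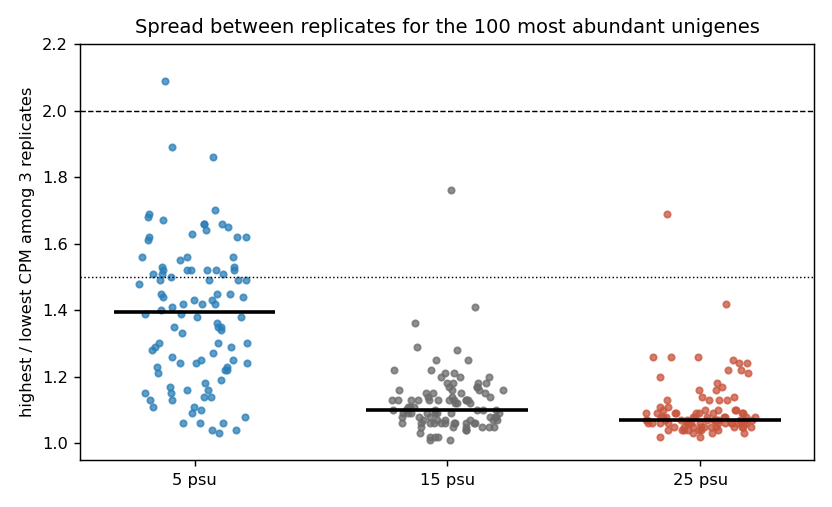
Ratio of the highest to the lowest CPM (TMM-scaled) among the 3 libraries of each salinity, for each of the 100 members by salinity in psu (points: members, solid lines: medians, dashed and dotted lines: 2-fold and 1.5-fold). The median is 1.4 at 5 psu, 1.1 at 15 psu and 1.07 at 25 psu, and the highest value, 2.09, is that of rank 2 at 5 psu.

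Rank 2 was the member whose replicates differed by at least 2-fold, with 66569, 49210 and 31927 CPM at 5 psu, 35167, 24398 and 19954 CPM at 15 psu, and 22187, 27973 and 23992 CPM at 25 psu. Its ratio was 2.09 at 5 psu, 1.76 at 15 psu and 1.26 at 25 psu. Rank 23 followed with a ratio of 1.89 at 5 psu. It had 2125, 2604 and 4009 CPM at 5 psu, 2266, 2982 and 3205 CPM at 15 psu, and 2125, 2330 and 2468 CPM at 25 psu, with replicate 3 highest in all 3 groups. Rank 95, the falling follower, came next with 1.86 at 5 psu. At 5 psu 22 of the next 900 and 23241 of all 71915 tested unigenes differed by at least 2-fold between replicates. The same counts were 4 and 19282 at 15 psu, and 4 and 20292 at 25 psu.

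Rank 91 had 1324, 1027 and 781 CPM at 5 psu, 1136, 964 and 942 CPM at 15 psu, and 985, 1048 and 1018 CPM at 25 psu, with the wide spread at 5 psu. Rank 5 had 9543, 7647 and 5636 CPM at 5 psu, 7271, 5984 and 6511 CPM at 15 psu, and 6578, 6714 and 6269 CPM at 25 psu, a ratio of 1.69 at 5 psu. Rank 64 had 1187, 1328 and 1686 CPM at 5 psu, 1100, 1132 and 1026 CPM at 15 psu, and 815, 1363 and 1376 CPM at 25 psu. It differed from the others in that its widest ratio, 1.69, was at 25 psu, where replicate 1 was low.

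Within 5 psu the members moved between replicates in 2 directions. As shares of the library, 73 were higher in replicate 1 than in replicate 3 and 27 were lower, with a median log2 difference of 0.26 over members beside -0.18 over all tested unigenes. For 65 members the shares were ordered replicate 1, 2, 3 from high to low, for 17 from low to high, and for 18 in neither order. On the TMM scale 88 members were higher in replicate 1 than in replicate 3, so the split by share depends on the scale. The replicate numbers name libraries and have no order of their own. The 73 had a median implied effective length of 1156 nt and the 27 a median of 2059 nt.

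This split by share was uneven between called and uncalled members. Of the 73, 3 were called for 25 against 5 psu, as were 14 of the 27. By share, 12 of the 14 members that rose were lower in replicate 1 than in replicate 3 at 5 psu. In TMM-scaled CPM, on which the calls rest, ranks 15, 18, 24, 55, 61 and 97 were still lower. Ranks 16, 26, 42, 46, 88 and 99 were higher in replicate 1 on that scale. The part of the library difference within 5 psu in these calls was not tested. At 15 psu the difference of replicate 1 from the mean of replicates 2 and 3 was also taken. Over members it had a Pearson r of 0.70 with the difference of replicate 1 from replicate 3 at 5 psu (Spearman rho 0.60). The n = 100 members share these libraries and their depth, and the 2 differences are not built alike. At 25 psu, 35 members had a higher share in replicate 1 than in replicate 2 and 65 a lower one. Against replicate 3 these counts were 52 and 48.

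A principal component analysis of the members' log2 CPM gave the same picture in 2 axes. Component 1 held 47.9% of the variance and ordered the libraries by salinity, with scores of -0.51, -0.43 and -0.33 at 5 psu, 0.01, 0.10 and 0.05 at 15 psu, and 0.41, 0.35 and 0.37 at 25 psu. Component 2 held 37.9% and spread the 5 psu libraries, with scores of -0.57, 0.01 and 0.74 at 5 psu, -0.26, 0.11 and 0.13 at 15 psu, and 0.00, -0.15 and -0.01 at 25 psu. The groups did not overlap on the first and the 5 psu libraries reached both ends of the second.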

How the data were processed

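RNA was measured in 9 libraries of whole juveniles, 3 at each of 3 salinities. Total RNA was taken up in Trizol, per the labels' protocols, and an NEBNext Ultra kit was used, which the labels do not describe as keeping the strand. For every unigene the authors deposited an estimated count and an FPKM, the FPKM rounded to 2 decimals, per the file headers. The submitters' processing notes name Bowtie2 and RSEM without versions. The assembler is not given in the sources used here. In a library, 25.0% to 27.6% of all 246672 unigenes have a count that is not whole, as reads shared by unigenes were divided. Unigenes without reads are included in that base. Of the tested unigenes, 26.1% have whole counts in all 9 libraries.

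The counts were rounded and filtered with edgeR's filterByExpr (count minimum 10), and libraries were scaled with TMM. edgeR 4.0.16 in R 4.3.3 fitted its quasi-likelihood model to all 9 libraries and all 71915 unigenes tested, with Benjamini-Hochberg adjustment over all of them. A standard error is the log2 fold change over the root of F. Shares are percent of the library's total count. Total counts, 15897903 to 18427234, make counting error small beside the spread between libraries. The Wilson intervals of shares cover counting error only, while the standard errors of log2 fold changes carry the spread between replicates. Implied effective length is the count over FPKM and library total, and each library's offset in it came from unigenes whose mean reached 2000 counts.

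The unigenes described singly are the 10 largest sums, the 4 largest called rises and falls of each comparison, the 4 largest of those that follow salinity in each direction, the 6 with the largest ratio between replicates, the 5 on either side of the border of the list, and the 3 most like the leading riser and faller. Ranks 11, 26, 40, 42, 46, 55, 86 and 88 are named beyond this rule, chosen after their values were seen. They complete a count or give the ends of a range. The members, lists and tests were chosen with earlier results of these data known. No p-value is given for shares summed over members. Alternatives were other scalings and filters, DESeq2 1.42.0, limma 3.58.1 (voom, and log2(FPKM + 1) or log2(FPKM + 0.1)), a replicate block, the length offset as a covariate, members chosen by mean FPKM, and each library left out. Deviations of same-numbered libraries correlated at -0.026 to 0.144, over 0.1 in 1 of 9 pairs, replicate 1 at 5 and 15 psu. For that pair the members alone, measured in another way, had the Pearson r of 0.70 given above. The labels tie no number to a shared batch, so libraries were not treated as paired in the main fit. Batch and date of sequencing are not in the labels.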

Additional observations from a re-analysis of the deposited data

How the results depend on the processing

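No called member changed direction under another scaling, and over 27 called comparisons of single members in 21 alternatives each, 490 of 567 kept the call, 77 lost it and 0 reversed. The cause of the differences below was not tested. For 5 against 15 psu the 6 called members became 14 with library totals alone, 14 with DESeq2's Wald test and 11 with limma-voom, and 4 to 8 with a library left out. For 25 against 15 psu the 4 became 7 with library totals, 7 with no filter, 9 with DESeq2's Wald test, 7 with limma-voom, 8 with the libraries at 5 psu left out of the fit, 1 with members chosen by mean FPKM and 0 with the length offset as a covariate, and 2 to 8 with a library left out. For 25 against 5 psu the 17 became 27 with library totals, 11 with the length offset and 5 with members chosen by mean FPKM, and 13 to 23 with a library left out. The 9 that follow salinity became 3 with members chosen by mean FPKM, and 9 to 13 with a library left out. The 14 differing among the salinities became 23 with library totals, 9 with the length offset and 5 with members chosen by mean FPKM, and 11 to 17 with a library left out. The 1 member that varied at least 2-fold between replicates became 3 with members chosen by mean FPKM, 33 at a minimum of 1.5-fold and 0 at 3-fold, and 0 to 1 with a library left out, 0 without replicate 1 or replicate 3 at 5 psu. The difference in summed share of 5 from 15 psu, 0.84 percentage points, became -1.38 without ranks 1 and 2, an alternative chosen after the values were seen, and -1.05 to 2.84 with a library left out. That of 25 from 15 psu, -1.19, became 0.22 with members chosen by mean FPKM, in percent of summed FPKM, and -1.67 to -0.41 with a library left out. That of 25 from 5 psu, -2.03, became 0.85 without ranks 1 and 2 and -4.02 to -0.14 with a library left out. With the replicate block, which no label supports, 6 members were called for 5 against 15 psu, 3 for 25 against 15 psu, 15 for 25 against 5 psu, 9 as following salinity and 15 for any difference. With 3 libraries a group, a log2 fold change of 0.89 was not called for rank 2, whose replicates spread 2.09-fold.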
